A study of Strophostyles helvola with 12 samples.

Results

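The 63 genes described here drew the most reads in root RNA of sand bean (Strophostyles helvola), a wild legume related to common bean. They were chosen from the measured levels. For each gene, CPM (its count for every 1000000 counts of the library) was averaged within each of 4 groups, 0.5 was added, and the mean of the 4 group values had to reach 800, with at least 1.5 in a control group. The 63 were found among 27191 gene identifiers, of which 2438 had no count in any library. The levels that made the choice are given as a description and carry no test. The rule used no test, but it averages the same 4 group means that the comparisons set against each other, so a gene high in a single group could become a member through that group. Responses to salt and differences between genotypes were tested over all genes, and counts of members that passed are given as a description.

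Whole roots came from seedlings of 2 genotypes, labelled 10 d old. The Beach treatment group received 400 mM NaCl and the Beach control group water. The Inland treatment group received 200 mM NaCl and the Inland control group water. The Beach genotype originated from the coast of North Carolina and the Inland genotype from Missouri, and each stands for its origin with a single genotype. Each group had 3 libraries, and each library combined equal amounts of root from plants collected at 3 h, 24 h and 7 d. These times count from when the designed NaCl concentration had been reached, so roots were older than 10 d. A value averages over these times. Since the dose changed along with the genotype, these 2 cannot be told apart. In whole roots, a change in the cells that make a transcript and a change in transcript per cell cannot be told apart either.

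A few genes take a large part of the messenger RNA of most plant tissues. In roots, these usually include genes for protein synthesis, cell walls, water channels, metal binding, central metabolism and defence. Because such genes are read so often, counting error is small for them, and a change in a few of them can shift the share of the library left for all other genes. The identifiers are those of common bean, whose genome served for the alignment, and the deposited table pairs none with a gene name or a function. No annotation was used here, so roles of the members are not given and the root identity of the samples could not be checked by markers.

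Libraries held between 29205979 and 41330498 counts. The paper lists an RNA integrity number for each library. It was lower in every Beach treatment library than in any Beach control library, while the Inland groups overlapped. In the Beach comparison, and so in the difference between responses, salt and RNA integrity cannot be told apart. Alignment was to another species for either genotype, and only uniquely aligned reads were counted, so a member with near-identical copies, or one that differs more from common bean in 1 genotype, may be undercounted. That was not tested. CPM is not divided by transcript length, which was not used here, so the order of the members is an order of reads and not of molecules.

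The members were 0.232% of the identifiers and held 9.77% of all counts. Their mean level had a median of 1198 CPM, against 12.95 CPM over all genes with any count. Between libraries of the same group their share varied least in the treated groups and most in Beach control. In the Beach treatment libraries the members took 10.2%, 9.80% and 9.84% of the counts, against 8.57%, 10.5% and 10.3% in the Beach control libraries. In the Inland treatment libraries they took 9.51%, 9.16% and 9.27%, against 10.5%, 9.61% and 10.2% in the Inland control libraries. The 3 Inland treatment values lay below the 3 Inland control values, whereas the Beach groups overlapped, since replicate 1 of the Beach control had the lowest share of all. Without that library the Beach control mean was 10.4%, and with it 9.79 ± 1.06% (SD, n = 3).

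**Figure D1:**
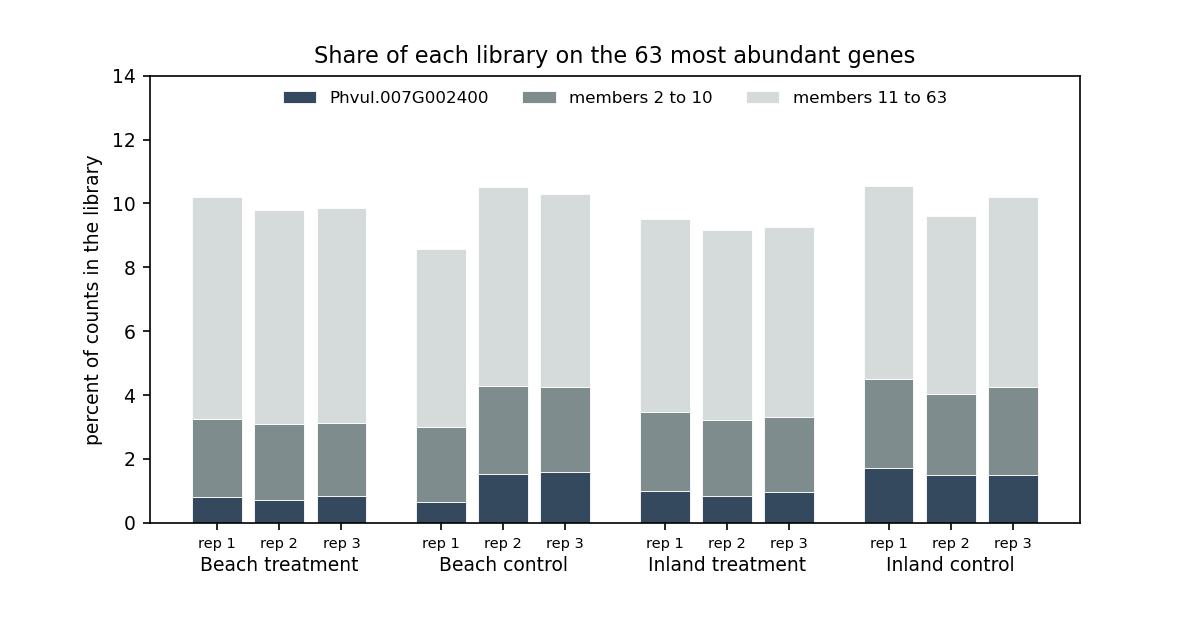
Percent of the counts of each library on the 63 most abundant genes, stacked as Phvul.007G002400 (dark), the next 9 genes (grey) and the other 53 (light), for 3 replicates in each of 4 groups. The total lies between 8.57% and 10.5%, and Beach control replicate 1 is the lowest bar.

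The summed share hid larger differences of single members. In the Beach genotype, 33 members had a higher mean CPM with salt, with a sum of changes of 21814 CPM, while 30 had a lower mean, with a sum of changes of -20251 CPM. The net change was 1563 CPM, and -4540 CPM without Beach control replicate 1, so its direction rested on that library. It was 348 to 5155 CPM with any other Beach library left out. In the Inland genotype, the changes of the 32 higher members summed to 13891 CPM and those of the 31 lower members to -21910 CPM, a net change of -8019 CPM. A single gene, Phvul.007G002400, contributed -6411 CPM of this in the Inland genotype. In the Beach genotype its change was -4537 CPM, or -7530 CPM without Beach control replicate 1 and -4795 to -2876 CPM with any other Beach library left out. With it removed from both the members and the totals, the share was 9.22 ± 0.198% in Beach treatment and 8.65 ± 0.606% in Beach control, and 8.46 ± 0.131% in Inland treatment and 8.68 ± 0.391% in Inland control (SD, n = 3). Treated and control libraries then overlapped in both genotypes, with 8.38% to 8.61% in Inland treatment against 8.23% to 8.97% in Inland control.

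The limit of 800 CPM fell in a dense part of the distribution. Just inside it were Phvul.011G045000 with a mean of 827 CPM, Phvul.011G209300 with 829 CPM and Phvul.004G170800 with 831 CPM. Just outside were Phvul.008G080800 and Phvul.010G135500 with 797 CPM each and Phvul.009G134700 with 795 CPM. Of the 63 members, 24 lay under 1000 CPM and 15 reached 1600 CPM, and the 10 highest had means of 2045 to 11380 CPM. At least 800 CPM was found in all 4 groups for 32 members and in all 12 libraries for 25. For 12 members the mean passed only because of their highest group, as the mean of the other 3 groups was under 800. Such genes had to differ between groups to be members. Of those named below, they include Phvul.001G209600, Phvul.009G211200 and Phvul.005G034600, which were highest in Beach treatment, and Phvul.007G078600 and Phvul.010G135800, which were highest in Inland control.

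Counting error was small next to the spread between replicates. The lowest count of any member in any library was 3336, at which counting alone gives a coefficient of variation of 1.73%. At the median count of 39455 it gives 0.503%. The observed coefficient of variation between replicates had a median over the members of 7.72% in Beach treatment and 13.5% in Beach control, and 6.22% in Inland treatment and 7.98% in Inland control. Over all genes above 5 CPM in at least 3 libraries the medians were 6.86% and 11.8% in the Beach groups, and 6.70% and 7.62% in the Inland groups, in the same order. The members' median was the higher one in 3 groups and the lower one in Inland treatment. The biological coefficient of variation fitted by edgeR had a median of 0.117 for the members and 0.106 for all 16909 genes.

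Beach control replicate 1 stood apart from the other libraries of its group. For 15 members it lay more than 0.5 on the log2 scale from the mean of the other Beach control libraries, higher for 5 and lower for 10. The same count was 6 for Beach control replicate 2, 5 for replicate 3, and between 0 and 2 for each of the 9 libraries of the other groups. Replicate 1 is part of the mean that replicates 2 and 3 were set against, so their counts are not independent of it. Among all genes above 5 CPM in at least 3 libraries, the median distance was 0.231 for Beach control replicate 1 and 0.0868 to 0.148 for the other 11 libraries. The direction of its deviation was read from the Inland genotype, whose libraries are separate. Of the 10 members that passed in the Inland comparison described below, 9 deviated in Beach control replicate 1 toward their direction under Inland salt, by a median of 0.48 on the log2 scale over the 10. In Beach control replicates 2 and 3 the counts were 4 and 1 of 10. Each was set against a mean that holds replicate 1, so these counts are no independent contrast. Over all 1207 genes that passed in the Inland genotype, 63.5% deviated that way in Beach control replicate 1. This comparison was chosen after the values were seen. Several of the results below, though not all, are given with and without that library. The paper lists a lower GC percentage for Beach control replicate 1 than for any other library. Its share of uniquely mapped reads was below those of the other Beach controls, though Beach treatment replicate 2 was lower still. Whether these bear on the deviation was not tested.

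**Figure D2:**
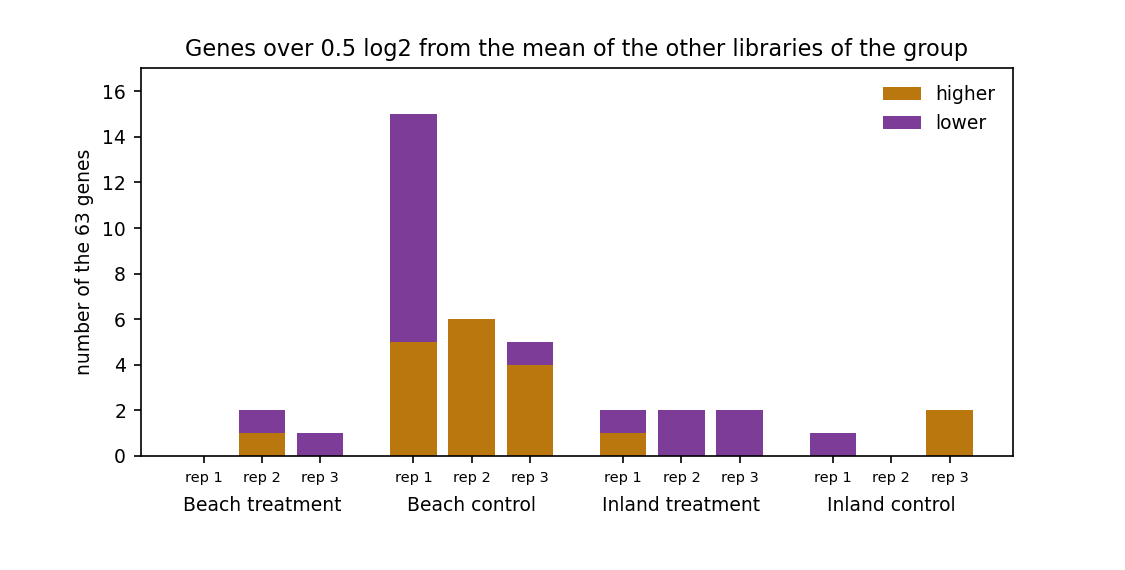
Number of the 63 genes whose log2 CPM in a library lay more than 0.5 from the mean of the other libraries of its group, split into higher and lower, for 12 libraries. Beach control replicate 1 has 15 such genes and no library outside the Beach control group has more than 2.

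The highest level belonged to Phvul.007G002400, which ranked first in every one of the 12 libraries. It had 8197, 7224 and 8485 CPM in the Beach treatment libraries, against 6520, 15170 and 15827 CPM in the Beach control libraries. In the Inland treatment libraries it had 9856, 8390 and 9702 CPM, against 17228, 14959 and 14995 CPM in the Inland control libraries. The Inland groups did not overlap, and the Beach groups overlapped only through control replicate 1, which lay below all treated libraries. Fitted with edgeR's quasi-likelihood test, the Inland change was -0.83 on the log2 scale (standard error 0.13, edgeR fdr = 0.00399), under the 2-fold limit. The fdr is the p-value adjusted by the Benjamini-Hochberg method over all genes tested. The Beach change was -0.64 (standard error 0.32, edgeR fdr = 0.15). Without Beach control replicate 1 it was -0.93 (standard error 0.12, edgeR fdr = 0.0012), and with edgeR's exact test on all libraries the fdr was 0.0333. The difference between the genotypes' responses was 0.21 (standard error 0.36, edgeR fdr = 0.74).

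The next levels were several times lower and close to each other. Phvul.003G127500 was second by its mean, with 2236, 2251 and 2517 CPM in Beach treatment against 4471, 5556 and 5662 CPM in Beach control. Its Inland treatment libraries had 3092, 2673 and 2740 CPM, against 4331, 4548 and 3744 CPM in Inland control. Treated and control libraries did not overlap in either genotype. It fell by 1.14 on the log2 scale in Beach (standard error 0.14, edgeR fdr = 0.000815) and was lower by less than 2-fold in Inland, at -0.65 (standard error 0.11, edgeR fdr = 0.00593). Of the 10 highest genes it alone passed both limits under salt, namely 2-fold or more and an fdr no higher than 0.05.

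Phvul.008G259900, with a mean of 3183 CPM, showed the same deviation of Beach control replicate 1. It had 2067, 1606 and 1585 CPM in Beach treatment, against 2000, 4446 and 3818 CPM in Beach control. In Inland treatment it had 3137, 2949 and 2367 CPM, against 4507, 4556 and 5154 CPM in Inland control. Control replicate 1 lay within the range of the treated Beach libraries, and the Inland groups were apart. The Beach change was -0.95 (standard error 0.29, edgeR fdr = 0.034), just under the fold limit, and -1.21 without that library (standard error 0.14, edgeR fdr = 0.000956). With any other Beach library left out the edgeR fdr was 0.0568 to 0.108. The Inland change was -0.83 (standard error 0.14, edgeR fdr = 0.00526).

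Among the 10 highest genes were also some with little response to salt. Phvul.007G052600 had 3040 to 3498 CPM in Beach treatment and 2797 to 2917 CPM in Beach control, and 3765 to 3925 CPM in Inland treatment and 2895 to 3302 CPM in Inland control. Neither change passed (edgeR fdr = 0.159 in Beach and 0.116 in Inland), although treated libraries lay above control libraries in both genotypes. Phvul.008G226000 ranged from 2539 to 3726 CPM over the 12 libraries and Phvul.007G135400 from 1771 to 2346 CPM, with overlapping groups in every comparison of treatment and control. These genes kept ranks between 2 and 14 in all libraries.

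The other 4 of the 10 highest passed the fdr limit in at least 1 comparison, though by small changes. Phvul.003G109100 had 3919, 3917 and 4084 CPM in Beach treatment, against 3351, 2515 and 2227 CPM in Beach control. Its Inland treatment libraries, with 2341, 2022 and 2489 CPM, overlapped the Inland control libraries, with 1912, 2030 and 2039 CPM. The Beach change of Phvul.003G109100 was 0.58 (standard error 0.16, edgeR fdr = 0.0207), and the edgeR fdr was up to 0.0705 with a library left out. In the treated plants this gene was higher in Beach than in Inland by 0.84 on the log2 scale (standard error 0.13, edgeR fdr = 0.000582). In control plants it was higher by 0.36 (edgeR fdr = 0.0657). The difference between its responses did not pass (0.48, edgeR fdr = 0.116). Phvul.003G051700 had 3341, 3165 and 2857 CPM in Beach treatment against 2322, 2573 and 2628 CPM in Beach control, and 2506, 2213 and 2235 CPM in Inland treatment against 2627, 2750 and 3061 CPM in Inland control. Its treated libraries thus lay above the controls in Beach and below them in Inland. The responses differed by 0.71 on the log2 scale (standard error 0.14, edgeR fdr = 0.0112), short of the 2-fold limit, and each response alone was small (0.34, edgeR fdr = 0.0556 in Beach, and -0.36, edgeR fdr = 0.039 in Inland, where leaving out a library gave 0.0348 to 0.124). Phvul.009G248700 differed by 0.30 with salt in Inland (standard error 0.09, edgeR fdr = 0.0417), and the fdr limit was missed with any of the 6 Inland libraries left out (edgeR fdr = 0.054 to 0.113). Phvul.001G181100 differed between Beach and Inland by -0.46 in control plants (edgeR fdr = 0.0392) and by -0.43 in treated plants (edgeR fdr = 0.0378). With the replicate block the edgeR fdr was 0.0699 in control plants and 0.0631 in treated plants, and leaving out a library gave values up to 0.122.

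**Figure D3:**
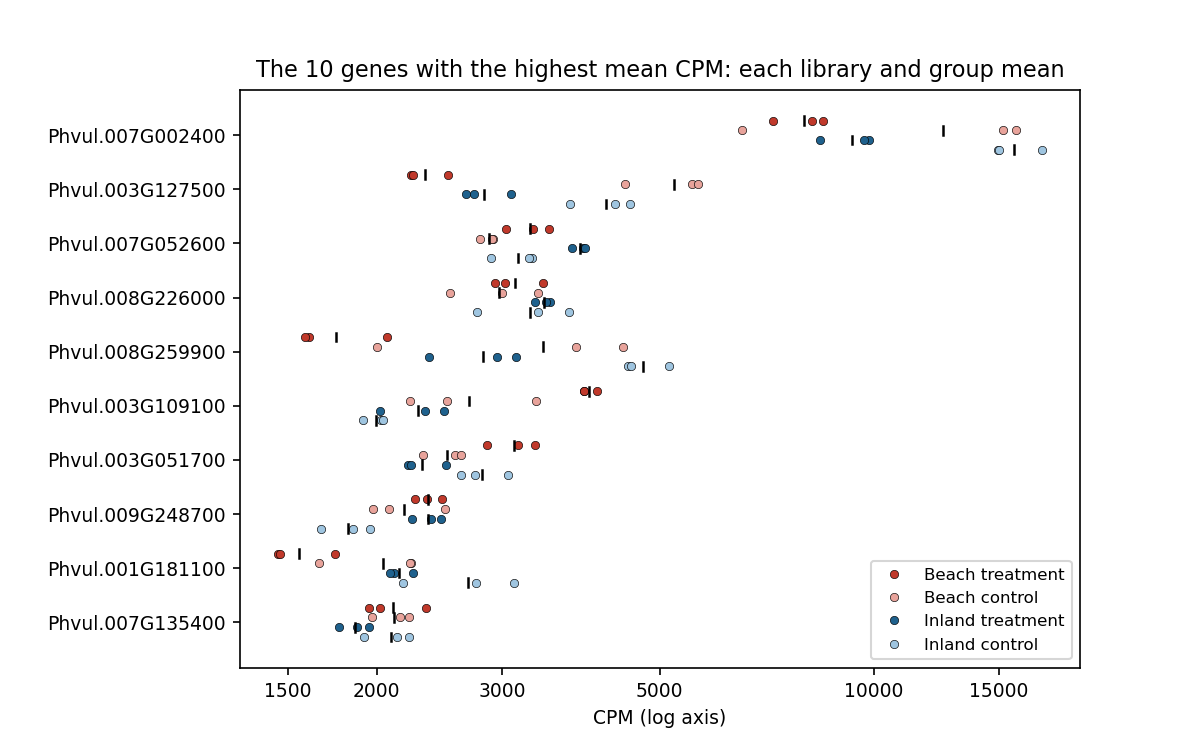
CPM (log axis) of the 10 genes with the highest mean level in each of 12 libraries; points are libraries, coloured by group, and short vertical lines are group means. Phvul.007G002400 lies apart from the others at 6520 to 17228 CPM, and its Beach control libraries are split between 6520 CPM and 15170 to 15827 CPM.

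In the Beach genotype 12 of the 63 members differed between treatment and control past both limits, 7 of them higher with salt and 5 lower. Over all 16154 genes tested in Beach, 12.5% passed, 6.75% higher and 5.75% lower, and among the members 19.0% passed. Of the 12, 7 were among the members that reached the abundance limit only through their highest group, and the other 5 were 9.80% of the remaining 51 members. The share of members that passed was thus partly set by the rule. Without the fold limit 30 members passed, or 47.6%, against 43.6% of all genes. The median change of the members was 0.04 on the log2 scale and that of all genes -0.02. The median size of the change, regardless of sign, was 0.41 for the members and 0.31 for all genes. The members' changes ran from -1.79 to 4.18. Without Beach control replicate 1, 16 members passed, 8 in each direction, and the 12 were all among them.

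The rise with the largest fitted size was that of Phvul.009G211200. It had 3952, 3276 and 4525 CPM in Beach treatment, against 282, 216 and 160 CPM in Beach control. All treated libraries were more than 10 times above the highest control library, and the gene ranked second in 1 treated library. The log2 change was 4.18 (standard error 0.24, edgeR fdr = 5.2e-05). It is a member only through its treated Beach libraries, since the mean of the other 3 groups was 355 CPM.

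Phvul.001G209600 had the next largest rise, with 2383, 2736 and 3119 CPM in Beach treatment against 677, 600 and 522 CPM in Beach control. The groups were well apart, and the log2 change was 2.22 (standard error 0.15, edgeR fdr = 7.59e-05). This gene too is a member only through Beach treatment, with a mean of 786 CPM over the other 3 groups. The other 5 members that rose in Beach had changes between 1.36 and 2.11.

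The falls were smaller in size than the largest rises. Phvul.010G135800 had 371, 280 and 345 CPM in Beach treatment, against 1021, 1065 and 1409 CPM in Beach control, a log2 change of -1.79 (standard error 0.17, edgeR fdr = 0.00026). Phvul.007G078600 had 381, 266 and 395 CPM in Beach treatment, against 930, 1157 and 1187 CPM in Beach control, a log2 change of -1.63 (standard error 0.18, edgeR fdr = 0.000484). Both were among the abundant transcripts of control roots and dropped below 400 CPM in all treated Beach libraries. The other 3 that fell had changes between -1.14 and -1.40.

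In the Inland genotype salt changed 10 members past both limits, 5 higher and 5 lower. Of the 16130 genes tested in Inland, 7.48% passed, 3.38% higher and 4.10% lower, and 15.9% of the members did. Here 4 of the 10 had reached the abundance limit only through their highest group, and the other 6 were 11.8% of the remaining 51. Without the fold limit 36 members passed (57.1%), 18 in each direction, against 36.4% of all genes. The median change was -0.02 for the members and -0.00 for all genes, and the median size was 0.44 and 0.20. Leaving out single Inland libraries gave 8 to 11 members. Phvul.004G098300 was lost without control replicate 1 or treatment replicate 2, Phvul.005G034600 without treatment replicate 2, and Phvul.010G135800 without control replicate 3.

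Phvul.009G211200 also had the largest rise here, with 824, 731 and 499 CPM in Inland treatment against 97.9, 134 and 250 CPM in Inland control. The groups did not overlap, though the control libraries differed among themselves by more than 2-fold. The log2 change was 2.01 (standard error 0.38, edgeR fdr = 0.00846). Phvul.008G113900 had 1536, 2251 and 2389 CPM in Inland treatment, against 610, 540 and 726 CPM in Inland control. It rose by 1.64 on the log2 scale (standard error 0.20, edgeR fdr = 0.00153), and by 1.62 in Beach (standard error 0.15, edgeR fdr = 0.000277).

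Among the falls in Inland, Phvul.010G124700 was the largest and the most even between replicates. It had 929, 980 and 903 CPM in Inland treatment, against 2333, 2390 and 2474 CPM in Inland control, a log2 change of -1.43 (standard error 0.08, edgeR fdr = 0.000135). In Beach it had 750, 824 and 791 CPM with salt, against 1651, 2566 and 2121 CPM in control, a change of -1.40 (standard error 0.18, edgeR fdr = 0.000896). Phvul.001G229500 had 1096, 706 and 913 CPM in Inland treatment against 2336, 2082 and 1982 CPM in Inland control, a change of -1.31 (standard error 0.16, edgeR fdr = 0.00172). Its Beach change of -0.96 (standard error 0.16, edgeR fdr = 0.00298) was short of 2-fold. Without Beach control replicate 1 it passed both limits in Beach.

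Libraries of treated and control plants did not overlap in CPM for 39 members in Beach (61.9%), where 58.8% of all tested genes did not overlap, and for 44 in Inland (69.8%), where 53.6% of all tested genes did not. With CPM scaled by edgeR's TMM method, the counts were 36 in Beach, where 58.9% of all tested genes did not overlap, and 48 in Inland, where 52.5% did not. Leaving out Beach control replicate 1 raised the Beach count to 52, while leaving out any other Beach library gave 40 to 42. Leaving out an Inland library gave 44 to 50. The members' shares include the 12 members that reached the abundance limit only through their highest group, so they are partly set by the rule.

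The Beach and Inland comparisons share no libraries and can be set side by side. All 5 members that rose in Inland also rose in Beach, and 2 members fell in both. A further 2 rose and 3 fell past the limits in Beach alone, and 3 fell in Inland alone. Of these, all but Phvul.004G098300 passed the fdr limit in the same direction in the other genotype, short of 2-fold. Phvul.004G098300 had a Beach change of -0.05 (edgeR fdr = 0.887). Without Beach control replicate 1, Phvul.001G229500 and another of the Inland falls passed both limits in Beach too. The counts that follow include that library. The 7 members that passed in both were 58.3% of the 12 Beach calls and 70.0% of the 10 Inland calls, and no member passed in opposite directions. Over the 15516 genes tested in both genotypes, 39.3% of Beach calls were also Inland calls and 64.0% of Inland calls were also Beach calls, and 99.6% of the genes called in both changed in the same direction. In all, 15 members passed in at least 1 genotype (23.8%, against 13.9% of the genes tested in both) and 48 in neither. Of these 15, 7 had reached the abundance limit only through their highest group. Of the 15, only 3 were among the 32 members at or above 800 CPM in all 4 groups, and 12 were among the other 31. A gene at the limit that moves by 2-fold falls under 800 CPM in some group, so these splits follow in part from the rule.

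The fitted changes had the same sign in both genotypes for 51 members (81.0%, against 74.0% of the genes tested in both) and opposite signs for 12. The fdr limit was passed in both genotypes by 25 members (39.7%, against 22.3%), all of the same sign, as were 96.9% of all such genes. It was passed in neither genotype by 22 members (34.9%, against 43.0%). Across the 63 members the Beach and Inland changes had a Pearson correlation of 0.864 and a Spearman correlation of 0.827. Across the 15516 genes tested in both genotypes these were 0.746 and 0.649. Genes are not independent replicates and the same 12 libraries enter each point, so these values are descriptive. The members include the 12 that reached the abundance limit only through their highest group, so the rule enters these shares and correlations. All genes tested include ones with far lower counts, where counting error is larger. The contrast with them does not show that abundant genes respond more alike. Without Phvul.009G211200 the Pearson correlation over the members was 0.855.

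**Figure D4:**
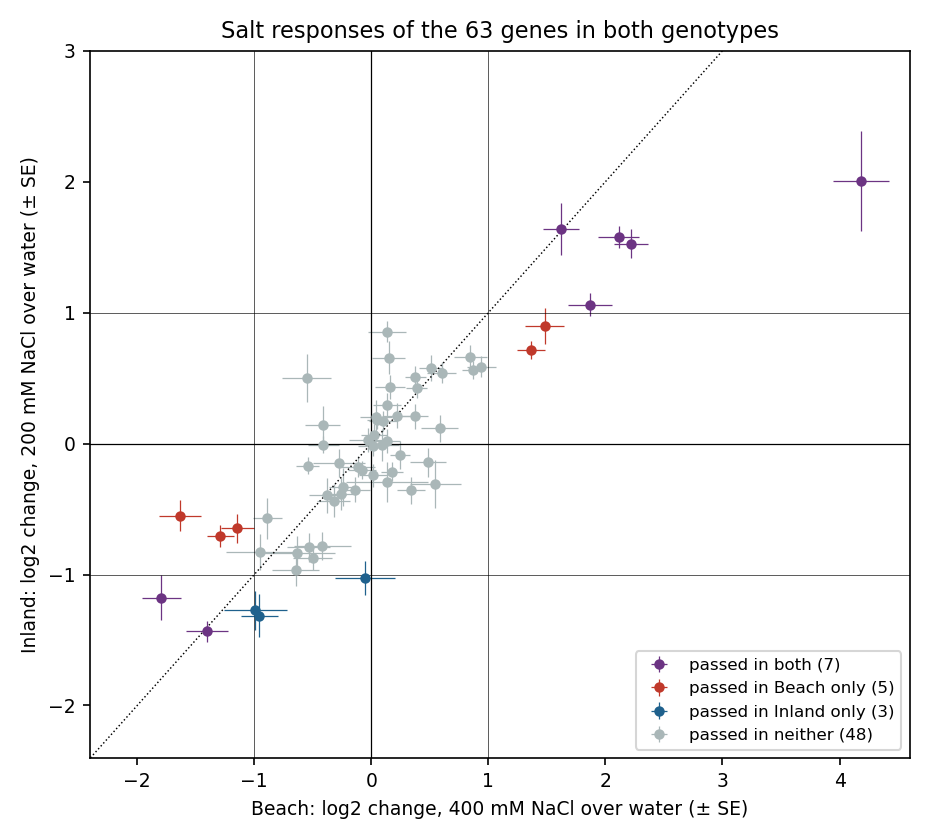
Log2 change with salt of each of the 63 genes in Beach (x axis, 400 mM NaCl over water) and Inland (y axis, 200 mM NaCl over water), with standard errors from edgeR; colours mark genes that passed both limits in both genotypes, in 1 or in neither, thin lines the 2-fold limits, and the dotted line equal changes. The 7 genes that passed in both lie in the same direction, and Phvul.009G211200 lies farthest out, at 4.18 and 2.01.

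The difference between the responses passed both limits for 3 members, or 4.76%, against 4.94% of all 16909 genes tested. It was positive for 1 of them (2.51% of all genes) and negative for 2 (2.42%). The count was 1 without Beach treatment replicate 2 or Inland control replicate 2 and 5 without Beach control replicate 2. Without the fold limit 12 members passed (19.0%), against 13.0% of all genes. The members' share past both limits was thus that of genes at large, and 2 of the 3, Phvul.009G211200 and Phvul.007G078600, had reached the abundance limit only through their highest group. For Phvul.009G211200 the Beach response was larger by 2.19 on the log2 scale (standard error 0.47, edgeR fdr = 0.014). This gene was called with each of the 12 libraries left out in turn, with a difference of 1.70 to 2.46.

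For Phvul.007G078600 the fall was larger in Beach, by -1.07 (standard error 0.22, edgeR fdr = 0.0124). In Inland this gene had 853, 785 and 930 CPM with salt, against 1355, 1009 and 1202 CPM in control, a change of -0.55 (standard error 0.12, edgeR fdr = 0.0137). The difference was under 2-fold without Beach treatment replicate 2 (-0.92) or Inland control replicate 2 (-0.97). Phvul.006G089000 had differences of opposite sign. It had 1306, 1407 and 1122 CPM in Beach treatment against 2553, 1704 and 1477 CPM in Beach control, and 1868, 2073 and 1387 CPM in Inland treatment against 1340, 984 and 1250 CPM in Inland control. The groups did not overlap in either genotype, but neither response passed alone, at -0.55 (edgeR fdr = 0.065) in Beach and 0.50 (edgeR fdr = 0.0714) in Inland. Both changes passed the fdr limit, though not the fold limit, with DESeq2 (fdr = 0.0219 and 0.0189). The difference of -1.04 (standard error 0.30, edgeR fdr = 0.0412) did not pass with any of 8 of the 12 libraries left out, and was -0.79 without Beach control replicate 1 (edgeR fdr = 0.0568).

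Between the control groups 2 members passed both limits, or 3.17%, against 6.35% of all 16909 genes. Of these, 1 was higher in Beach (2.58% of all genes were) and 1 lower (3.77% were). Without the fold limit 16 members passed (25.4%, against 25.9% of all genes), and 25 did not overlap between the groups in CPM (39.7%, against 42.2%), or 28 in TMM-scaled CPM (44.4%, against 40.3%). The members' share past both limits was lower than that of all genes, though it rests on 2 members. Their shares without the fold limit and without overlap lay near those of all genes. Phvul.009G211300 had 1294, 815 and 992 CPM in Beach control, against 399, 415 and 431 CPM in Inland control, and was higher in Beach by 1.24 on the log2 scale (standard error 0.14, edgeR fdr = 8.84e-05). Phvul.009G053900 had 527, 904 and 723 CPM in Beach control, against 1425, 1482 and 1447 CPM in Inland control, and was lower in Beach by -1.09 (standard error 0.22, edgeR fdr = 0.00436). Without Beach control replicate 1 this difference was -0.90 (edgeR fdr = 0.0124) and under 2-fold. Such differences may come from expression or from unequal alignment of the genotypes' reads to common bean, and these cannot be told apart here.

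Between the treated groups 5 members passed, 4 higher and 1 lower in Beach (7.94%, 3 of them members only through their highest group, against 10.3% of all 16909 genes, of which 4.64% were higher and 5.61% lower). Without the fold limit 22 members passed (34.9%, against 37.5% of all genes). The groups did not overlap for 37 members in CPM (58.7%, against 58.2%) and for 40 in TMM-scaled CPM (63.5%, against 58.2%). Phvul.009G211200 was higher in Beach by 2.55 (standard error 0.35, edgeR fdr = 0.000199). Phvul.009G211300 was higher by 1.79 (standard error 0.14, edgeR fdr = 3.39e-06), with 4607, 4103 and 4500 CPM in Beach treatment against 1428, 1231 and 1266 CPM in Inland treatment. Phvul.001G209600 was higher by 1.09 (standard error 0.13, edgeR fdr = 7.77e-05) and just under 2-fold without Beach treatment replicate 3. Phvul.004G098300 was higher by 1.10 (standard error 0.22, edgeR fdr = 0.00252), with 1560, 1278 and 1637 CPM in Beach treatment against 786, 585 and 774 CPM in Inland treatment, and under 2-fold without Inland treatment replicate 2. Phvul.007G078600 was lower in Beach by -1.26 (standard error 0.16, edgeR fdr = 0.000124). The treated groups share their libraries with the comparisons of treatment and control above.

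**Figure D5:**
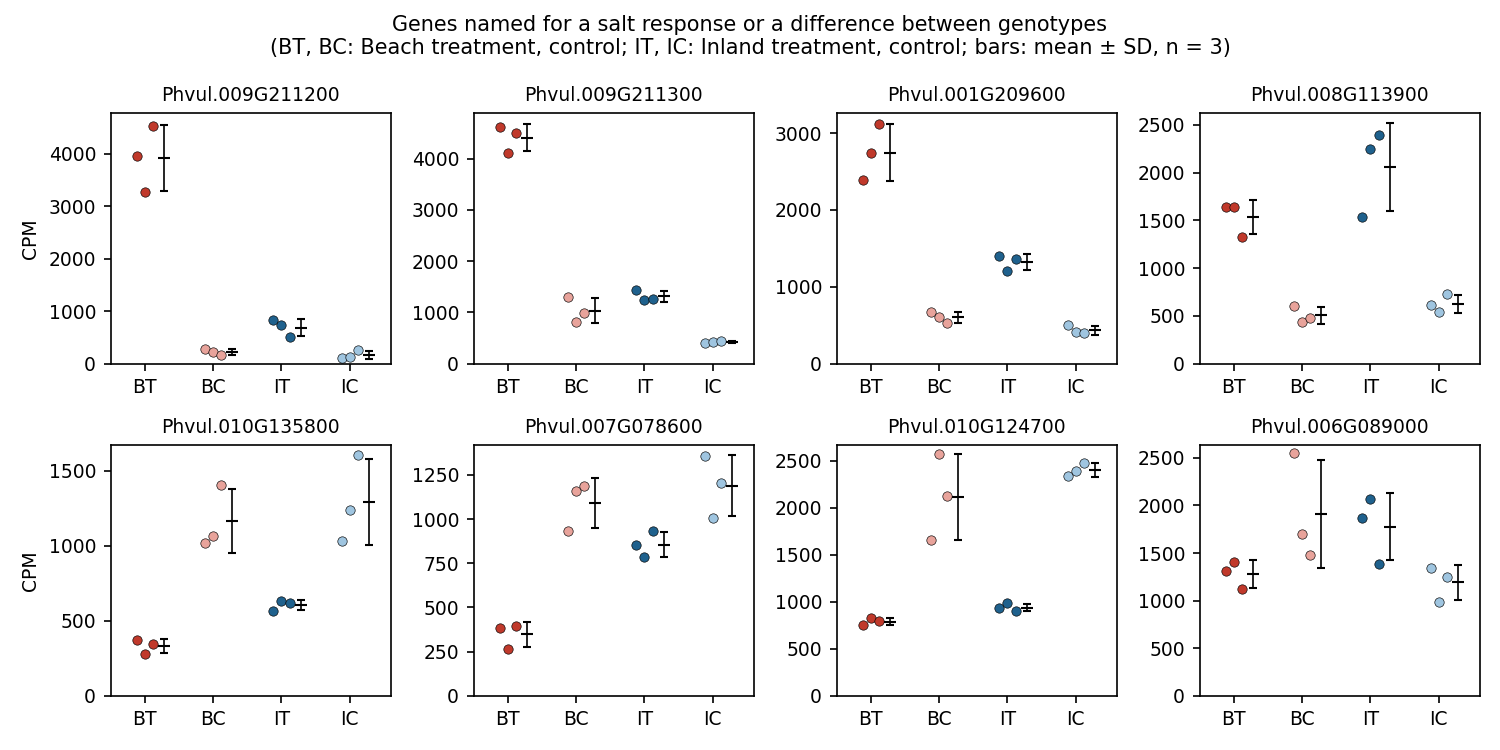
CPM of 8 genes named for a salt response or for a difference between genotypes, in each library (points) with the mean ± SD of 3 libraries (bars); BT and BC are Beach treatment and control, IT and IC Inland treatment and control. Phvul.009G211200 and Phvul.009G211300 reach 3276 to 4607 CPM in treated Beach roots, and the treated libraries of Phvul.006G089000 lie below the controls in Beach and above them in Inland.

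At the other end were members with small fitted changes. The smallest changes with salt over both genotypes, under 0.07 on the log2 scale in each, belonged to Phvul.005G058100, Phvul.001G113800 and Phvul.003G051200. Phvul.005G058100 had 1623, 1594 and 1583 CPM in Beach treatment, against 1385, 1670 and 1777 CPM in Beach control. In Inland treatment it had 1587, 1493 and 1530 CPM, against 1524, 1543 and 1362 CPM in Inland control. Treated and control libraries overlapped in both genotypes. Phvul.001G113800 ranged from 1295 to 1938 CPM over the 12 libraries and Phvul.003G051200 from 797 to 1137 CPM. For Phvul.003G051200 the Inland treatment libraries (1090 to 1137 CPM) did not overlap the Inland control libraries (914 to 1073 CPM) in CPM on library totals. With TMM scaling its fitted Inland change was 0.069 (edgeR fdr = 0.535), so the lack of overlap is no sign of a response. In treated plants this gene was lower in Beach than in Inland by -0.31 (edgeR fdr = 0.0217). In 13 of the 63 members the highest library was less than 1.5 times the lowest, and in 28 less than 2 times, with a median ratio of 2.11. The ratio was lowest, at 1.25, for Phvul.003G047500, and highest, at 46.2, for Phvul.009G211200, and in 8 members it was 4 or more. Of the 63 members, 12 passed the fdr limit in none of the 5 comparisons (19.0%, against 30.0% of the 15516 genes tested in all), and 46 passed both limits in none of them (73.0%, against 81.8%). Missing the limit does not show that their levels were equal.

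Membership of the highest ranks changed from library to library below the first place. Phvul.007G002400 was the only gene among the 5 highest of every library, while 11 genes were among the 5 highest of at least 1. Among the 10 highest were 4 genes in all 12 libraries and 20 in at least 1. Of the members, 40 ranked among the 100 highest in every library and 57 among the 200 highest, and the lowest rank, 2369, was that of Phvul.009G211200 in an Inland control library. Each group held the highest mean for a similar number of members, namely 17 for Beach treatment, 14 for Beach control, 15 for Inland treatment and 17 for Inland control. The lowest mean was less evenly spread, with 19 members in Beach treatment, 11 in Beach control, 11 in Inland treatment and 22 in Inland control.

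The chromosome number that common bean identifiers carry placed members on all 11 chromosomes, from 2 on chromosome 4 to 9 on chromosome 9. Per 1000 identifiers listed, this was 1.12 to 3.42 members. A pair of members stood in consecutive rows of the table in 2 cases. Phvul.009G211200 and Phvul.009G211300 both rose in both genotypes. Phvul.005G156800 and Phvul.005G156900 were both lower with salt in Inland, by -0.78 (edgeR fdr = 0.00242) and -0.87 (edgeR fdr = 0.000991), and in Beach had changes of -0.42 (edgeR fdr = 0.199) and -0.50 (edgeR fdr = 0.044). Whether the genes of a pair are copies with shared reads was not tested. More than a single pair had rows that lay 3 apart. In the pair given here, Phvul.008G113900 rose in both genotypes. Its neighbour Phvul.008G113600 had 1033 to 1076 CPM in Beach treatment and 856 to 942 CPM in Beach control. In Inland it had 684 to 808 CPM in treatment and 694 to 835 CPM in control.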

How the data were processed

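RNA of pooled whole roots was sequenced in 12 libraries as single reads. The authors trimmed reads with Trimmomatic 0.36, aligned them with STAR to the common bean genome Pvulgaris_218_v1.0 and counted uniquely aligned reads over exons with featureCounts; versions of the last 2 are not given in the sources used here. The authors deposited a count per gene and library, without normalization. All 12 columns were used.

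Counts were fitted with edgeR 4.0.16 in R 4.3.3 (quasi-likelihood test, TMM scaling, Benjamini-Hochberg adjustment over all genes tested). The filter was a CPM over 5 in 3 or more libraries, among the 6 libraries of a genotype for its response to salt and among all 12 otherwise. The limits were a 2-fold change and an fdr of 0.05. Standard errors came from the F statistic. Printed CPM used library totals. Alternatives were DESeq2 1.42.0, edgeR's exact test, other scalings and filters, a replicate block and the omission of each library, with the tested genes held fixed. Steps were run on simulated data for each comparison except that between the treated groups. The simulation gave all genes the same spread and held no deviating library, so it does not cover a library like Beach control replicate 1. No library was a copy of another of its group (chi-square per degree of freedom between replicates 10.7 to 54.6). A count interval covers counting error only, as reads carried no molecular identifiers.

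The members, the comparisons and the rule for named genes were chosen with earlier results of these data known. Named were the 10 highest genes, up to 2 rises and 2 falls per comparison among members past both limits without overlap (the rule allowed 5, reduced because identifiers carry no names), all members that passed where these were 5 or fewer, the 3 steadiest and the 3 on either side of the abundance limit. Others were chosen after their values were seen: Phvul.003G047500, Phvul.005G034600, Phvul.005G156800, Phvul.005G156900 and Phvul.008G113600. Planned lists of functions, tissue markers and promoter motifs were not used, as they need an annotation.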

Additional observations from a re-analysis of the deposited data

Results flagged for a closer look

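In 3 members the Beach and Inland responses differed by the edgeR test of the difference itself, at 400 mM NaCl in Beach and 200 mM in Inland. They were 4.76% of the members, against 4.94% of all genes tested, so the count is no more than genes at large gave. The difference, Beach response minus Inland response on the log2 scale, was 2.19 for Phvul.009G211200, -1.07 for Phvul.007G078600 and -1.04 for Phvul.006G089000. The first 2 became members only through the group where they were highest (the other 3 groups averaged 355 and 765 CPM), so the rule favoured genes that differ in this way. With single libraries left out, the edgeR fdr was 0.00555 to 0.036 for Phvul.009G211200 and 0.00851 to 0.0337 for Phvul.007G078600, which was under 2-fold without Beach treatment replicate 2 or Inland control replicate 2. Phvul.006G089000 ranged from -1.20 to -0.79 (edgeR fdr from 0.0306 to 0.0899) and did not pass with any of 8 of the 12 libraries left out.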

How the results depend on the processing

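None of the 35 fitted changes of named genes that were recomputed changed sign in 576 recomputations. Of the 35, 19 passed both limits. The side of both limits together was kept in 562 recomputations, lost in 13 and gained in 1, all of these 14 with a library left out. The fdr limit alone was lost in 51, of which 9 had other settings (among them the replicate block), and gained in 9. The members that passed were as many with DESeq2, with the exact test (not run for the difference between responses), with RLE size factors, with either lower filter and with scaling that left the members out. With library totals in place of TMM, 13 passed in Beach and 9 in Inland, and the median of all genes moved from -0.01 to -0.13 in the difference between responses. Without a minimum on fold change 30 members passed in Beach, 36 in Inland, 12 for the difference between responses, 16 between control groups and 22 between treated groups. With each library left out in turn these counts were 12 to 16 in Beach, 8 to 11 in Inland, 1 to 5 for the difference, 1 to 2 between controls and 4 to 5 between treated groups, in place of 12, 10, 3, 2 and 5. The 63 members became 228 at a mean of at least 400 CPM, 15 at 1600 CPM, 32 when each group had to reach 800 CPM, and 63 to 66 with a library left out, the 63 always among the last. Without the most abundant gene the share of a library on the members was 9.22% in Beach treatment, 8.65% in Beach control, 8.46% in Inland treatment and 8.68% in Inland control. Leaving out a library gave 9.82 to 10.0%, 9.43 to 10.4%, 9.21 to 9.39% and 9.91 to 10.4% in the same order.

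Same-numbered libraries of different groups did not deviate together: 18 pairs had correlations from -0.166 to 0.143, with 3 above 0.1, and the numbers were not used as pairs. With the replicate block, 12 members passed in Beach, 10 in Inland, 3 for the difference, 2 between controls and 5 between treated groups, as without it. With the block, 5 changes under 2-fold missed the fdr limit, both of Phvul.001G181100 as given above, and those of Phvul.008G259900 in Beach (edgeR fdr = 0.0847) and of Phvul.003G051700 and Phvul.009G248700 in Inland (edgeR fdr = 0.105 and 0.110). The coefficient of variation from counting was at most 1.73%, against median values of 6.22% to 13.5% between replicates.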
